A study of Mus musculus with 42 samples.

Results

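The 8 genes described here act in blood coagulation and in the activation of plasminogen: F3 (tissue factor), F7, F10, F13a1, Thbd (thrombomodulin), Plau (urokinase), Plaur (the urokinase receptor) and Serpinb2 (plasminogen activator inhibitor type 2). They were taken by name from the 26811 genes of the deposited count table, by matching Ensembl identifiers to mouse GENCODE symbols, and all 8 had rows and passed the filter on low counts. They were chosen by their log2 fold changes between treatment groups in an earlier analysis of these same tumors, in which F10 stood out in aPD1 + aGM-CSF against aPD1 and F13a1 in aPD1 + aIL2RB against isotype, so their values in that pair of comparisons are descriptions without a test. Every other comparison of F10 or F13a1 with 1 of these groups uses the same tumors again, so its p-value is not independent of that choice. The p-values of the other genes also come from the tumors by which the list was chosen. They are therefore not independent of that choice either. Poly(A) RNA was sequenced from whole tumors of MC38, a colon carcinoma line of C57BL/6 mice, grown under the skin of female F1 mice from the cross of CC075/UncJ with C57BL/6J (CC75×B6), aged 8 to 12 weeks. From engraftment on, each mouse received antibodies at intervals of 3 days, which were isotype controls, aGM-CSF (100 µg, against the myeloid growth factor GM-CSF), aIL2RB (200 µg, against the beta chain of the receptors of IL-2 and IL-15), or aGM-CSF and aIL2RB together. At a tumor size of 75 to 110 mm3 each mouse had 1 dose of 200 µg of aPD1 or of its isotype control, and was killed 48 h after it. Isotype controls alone (isotype) were given to 5 mice and aPD1 with isotype controls (aPD1) to 6. There were 9 tumors of aPD1 + aGM-CSF, 11 of aPD1 + aIL2RB, and 11 of aPD1 with both blocking antibodies, named the combined group here. Each replicate was a separate tumor. The host is 1 F1 genotype, and the whole tumor was profiled, so tumor cells and host cells are mixed in each value.

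Coagulation starts when tissue factor, a receptor on the surface of cells outside the blood stream and on activated myeloid cells, binds the protease factor VII, and this complex activates factor X, which in turn makes thrombin. Thrombin cuts fibrinogen to fibrin, the transglutaminase factor XIII crosslinks it, and thrombomodulin turns thrombin toward the anticoagulant protein C pathway. Urokinase, held at the cell surface by its receptor, cuts plasminogen to plasmin, which dissolves fibrin and matrix, and inhibitors of the serpin family, Serpinb2 among them, restrain it. Liver makes most plasma factors, while macrophages are a source of several of these transcripts in tissues, factor XIII subunit A among them.

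Libraries held 7155486 to 24101674 counts, with the second lowest at 15109227. The tumors divided along their replicate numbers into 2 sets that the labels do not name, with 22 tumors in the first (isotype 1 and 2, aPD1 1 to 3, aPD1 + aGM-CSF 1 to 5, and 1 to 6 in the other groups) and 20 in the second. With treatment in the model, 25.1% of the genes tested differed between these sets (edgeR, adjusted p under 0.05), but none of the 8 genes passed this test, and F3 had the lowest adjusted p among them (log2 difference of second minus first set -0.28 ± 0.13 (SE), adjusted p = 0.0961). Since no label fixes this division, the share and the p-values between sets describe it and do not test a known batch. Replicate 9 of aPD1 + aIL2RB was the highest or lowest of the 11 tumors of its group in 7 of the 8 genes. It also held 27.6 CPM (counts scaled to library size with TMM normalization, which equalizes the bulk of genes between libraries) of epithelial, 13.7 CPM of adipocyte and 2373 CPM of fibroblast markers (summed), where the other 10 tumors of the group ran from 1.61 to 8.31, from 0.762 to 5.79 and from 1481 to 2199 CPM, and the part of these in its values was not tested. The summed level of 5 macrophage markers (Adgre1, Csf1r, Cd68, C1qa and Mertk) ran from 792 to 929 CPM in isotype tumors, from 947.7 to 1646 in aPD1 tumors, from 733 to 914 under aGM-CSF, from 679 to 866 under aIL2RB and from 582 to 1227 in the combined group. Of these 5 markers, 4 were higher in aPD1 than in isotype tumors and 4 were lower in each group given a blocking antibody than in aPD1 tumors. Hepatocyte markers summed to at most 0.659 CPM in any tumor, with Alb at 0 in 40 of 42 tumors. The epithelial markers Epcam, Krt8, Krt18, Krt19 and Cdh1, which might be looked for in a carcinoma, summed to only 0.263 to 28.7 CPM. In each of the 5 groups their sum was higher in every tumor of the second set than in every tumor of the first, with 5.46 to 8.88 against 14.2 to 28.7 CPM in aPD1 tumors and 6.85 to 8.81 against 17.1 to 20.7 CPM in isotype tumors. In whole tumors, fewer cells of a type and less RNA per cell cannot be told apart.

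Corrected for transcript length, Plau and F3 stood highest, with group means of 28.2 to 34.4 and 21.2 to 46.0 CPM per kb, followed by Plaur at 12.9 to 18.3 and F13a1 at 4.12 to 9.57 CPM per kb. F10, Thbd, Serpinb2 and F7 were low, with group means of 0.350 to 1.89, 0.993 to 1.45, 0.310 to 1.59 and 0.0531 to 0.534 CPM per kb. Plau and F3 ranges overlapped, so their order depends on the group. Levels below are in CPM, not per kb.

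**Figure D1:**
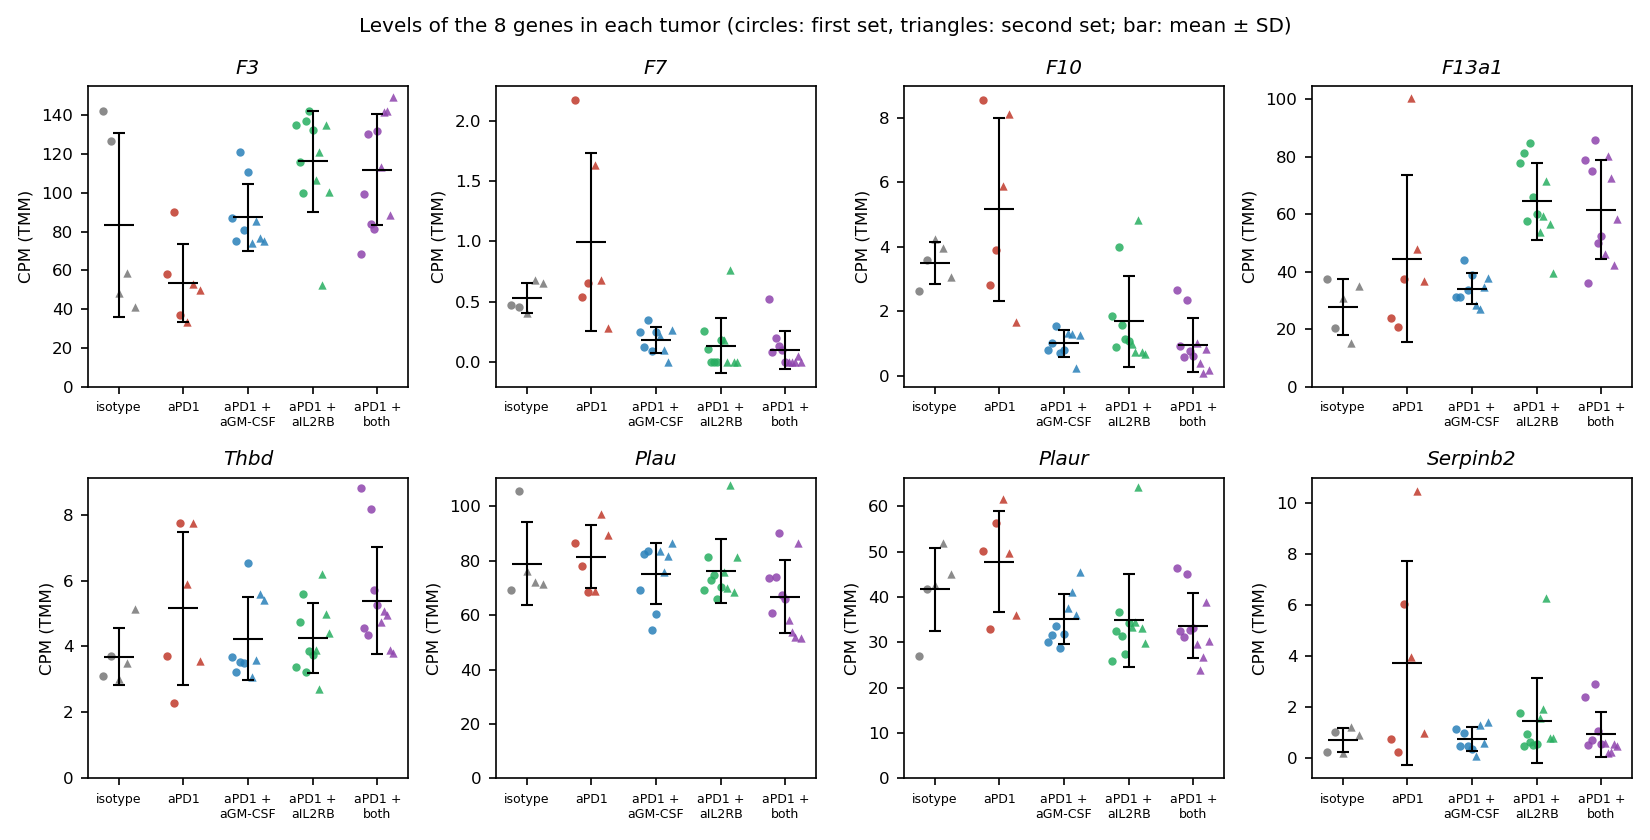
Levels of the 8 genes in each of the 42 tumors, by treatment group on the horizontal axis and in CPM on the vertical axis. Points are tumors (circles for the first set, triangles for the second) and bars are means ± SD. F10 and F7 sit lowest in the groups given blocking antibodies, while F3 runs from 33.2 to 90.0 CPM in aPD1 tumors and from 100.1 to 142 CPM in 10 of 11 aPD1 + aIL2RB tumors.

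F10 and F7, the genes of factor X and factor VII, lie side by side on mouse chromosome 8 on the plus strand (GRCm38), F7 at chr8:13026034-13035809 and F10 at chr8:13037308-13056676, with 1498 bases between them. The 250 bases before their RefSeq starts (GRCm38.p6, chr8:13025784-13026033 and chr8:13037058-13037307, plus strand, written 5′ to 3′) are shown because both genes had their lowest levels in the groups given blocking antibodies. Capitals mark matches to any of 6 letter strings searched on both strands, which here is only GAGGAA (the core bound by PU.1, a factor of myeloid cells), read on the minus strand of F7 from position -144 counted from the start. F10 held none of the 6. The others were TTCNNNGAA for STAT factors, in 7.02% of windows, and TTNCGNAA for C/EBP, in 2.04% of windows. The interferon-stimulated response element was in 2.98% of windows. TGANTCA for AP-1 and the TATA box string TATAAA are taken up with the genes that hold them. Of 32851 RefSeq windows of this length, 23.3% held GAGGAA.
F7: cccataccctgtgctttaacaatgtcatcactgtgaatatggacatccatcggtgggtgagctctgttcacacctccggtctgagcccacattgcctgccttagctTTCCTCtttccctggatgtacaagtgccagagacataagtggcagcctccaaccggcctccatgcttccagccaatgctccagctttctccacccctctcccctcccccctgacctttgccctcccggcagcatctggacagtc
F10: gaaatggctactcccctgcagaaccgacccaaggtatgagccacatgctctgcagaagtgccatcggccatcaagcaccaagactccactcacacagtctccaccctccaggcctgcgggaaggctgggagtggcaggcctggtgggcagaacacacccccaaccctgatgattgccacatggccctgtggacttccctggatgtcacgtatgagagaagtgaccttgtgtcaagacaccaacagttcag

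F10 was at 2.64, 3.61, 4.23, 3.97 and 3.08 CPM in the isotype tumors and at a lowest, median and highest of 1.69, 4.91 and 8.57 CPM in the aPD1 tumors. It was at 0.250, 1.03 and 1.57 CPM under aGM-CSF, at 0.692, 1.09 and 4.84 CPM under aIL2RB, and at 0.0890, 0.783 and 2.67 CPM in the combined group. Every aPD1 + aGM-CSF tumor lay below every isotype and every aPD1 tumor. In the other groups given blocking antibodies 1 or more tumors reached into the range of isotype or aPD1 tumors, with replicate 9 the highest of aPD1 + aIL2RB.

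Against aPD1, F10 was 3.05-fold lower under aIL2RB (-1.61 ± 0.42 (SE) on the log2 scale, adjusted p = 0.00294 by edgeR), with 8 of 11 tumors below every aPD1 tumor, and 5.64-fold lower in the combined group (-2.50 ± 0.43, adjusted p = 2.92e-05), with 9 of 11 below. The call in the combined group held in each of 11 alternative settings and 42 fits without 1 tumor (highest adjusted p 0.0182). The call under aIL2RB missed the threshold only in the second set alone, at -1.71 (adjusted p 0.0567, against 0.00165 to 0.0567 over the alternatives). Without replicate 9 it was -1.91 with adjusted p = 0.000294. In the comparisons with aPD1, 4 of the 8 genes passed under aIL2RB and 5 of 8 in the combined group, where 27.4% of all genes tested passed in each. The groups compared share the 6 aPD1 tumors. These tumors are also among those by which F10 was chosen, so neither its p-values against aPD1 nor the refits are independent of that choice. Against isotype, F10 was 3.84-fold lower in the combined group (-1.94 ± 0.45, adjusted p = 0.00664), 1 of 3 genes of the 8 that passed there, where 10.2% of all genes passed. That call was lost in the first set alone (-1.29, adjusted p 0.205, against 0.00227 to 0.205 over the alternatives).

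The aGM-CSF group differs for F10 in what can be tested. F10 was among the earlier known results of aPD1 + aGM-CSF against aPD1, where 13.5% of all genes passed, so the value there is a description: 5.06-fold lower (-2.34 ± 0.45), with all 9 tumors below every aPD1 tumor, as for 2.2% of all genes. Against isotype the log2 fold change was -1.79 ± 0.47 with an unadjusted p of 0.000472 but an edgeR adjusted p of 0.701, in a comparison in which 0 of 16932 genes passed (938 at an unadjusted p under 0.05, among them 2 of the 8). DESeq2 called 0 of the 8 as well. F10 and F7 were both below all isotype tumors in all 9 tumors under aGM-CSF, which 0.154% of all genes tested were. These are the same 9 tumors for whose F10 levels the gene was chosen, so neither this share nor the p-values are independent of the choice. With only these groups in the model, F10 passed at -1.79 (adjusted p 0.0323, against 0.0323 to 0.999 over the alternatives). Under aIL2RB against isotype, where 3.20% of all genes passed and no test is given for the 8 genes, F10 was at -1.06 ± 0.44.

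F7 was read from few counts: 10, 10, 8, 16 and 14 in the isotype tumors and 35, 9, 13, 38, 9 and 6 in the aPD1 tumors. Under aGM-CSF it had 0 to 8 counts, under aIL2RB 0 to 16 and in the combined group 0 to 10, and it was at 0 in 1 of 9, 6 of 11 and 5 of 11 tumors. A count of 0 allows up to 3 counts, which is 0.122 CPM in the deepest library and 0.395 CPM in the shallowest, counting error only. The 16 counts belong to replicate 9, and the next highest tumor under aIL2RB had 6.

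Against aPD1, F7 was lower under aIL2RB (log2 fold change -2.80 ± 0.67, edgeR adjusted p = 0.00124) and in the combined group (-3.28 ± 0.70, adjusted p = 0.00042), with 10 of 11 tumors below every aPD1 tumor in each. Without replicate 9 the value under aIL2RB was -3.62. The call under aIL2RB was lost only in the second set alone (-2.20, adjusted p 0.0996, against 0.00118 to 0.0996). The call in the combined group was lost only in the first set alone (-2.64, adjusted p 0.0523, against 0.000289 to 0.0523). By the test of the difference between sets, the combined group was at -5.74 against aPD1 in the second set. Against isotype the combined group was at -2.39 ± 0.75 with adjusted p = 0.0347, a call lost in 3 of 10 alternatives (adjusted p from 0.0151 to 0.464) and without isotype replicate 2 (0.0683), 4 (0.106) or 5 (0.0653), or combined group replicate 6 (0.054), 7 (0.0501), 8 (0.0528) or 9 (0.0506). Without 1 of these tumors the value was -2.25 to -2.44, while it was -1.39 in the first set alone and -5.17 in the second, a fitted value where the combined group had 1 count over 5 tumors. Under aGM-CSF, F7 was at -2.42 ± 0.70 against aPD1, with no test, and at -1.53 ± 0.74 against isotype (adjusted p = 0.889). In aPD1 against isotype neither gene passed, with F10 at 0.55 ± 0.51 (edgeR adjusted p = 0.542) and F7 at 0.89 ± 0.76 (adjusted p = 0.51).

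Across the 42 tumors, log2 CPM of F10 and F7 had a Pearson r of 0.786, and 0.631 after group means were taken out. Points of one group share their treatment, so these are descriptions. Among the genes most like F10, of 12442 compared, were Slc7a2 (a transporter of cationic amino acids; r = 0.848) and Ifitm1 (r = 0.837), and among those most like F7 were B4galnt1 (r = 0.803) and Itgb2 (r = 0.795). The macrophage marker sum moved with both genes (r = 0.688 with F10 and 0.699 with F7 over 42 tumors), as did the neutrophil sum (r = 0.676 and 0.681) and the T cell sum (r = 0.66 and 0.695). Their part in these results was not tested.

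**Figure D2:**
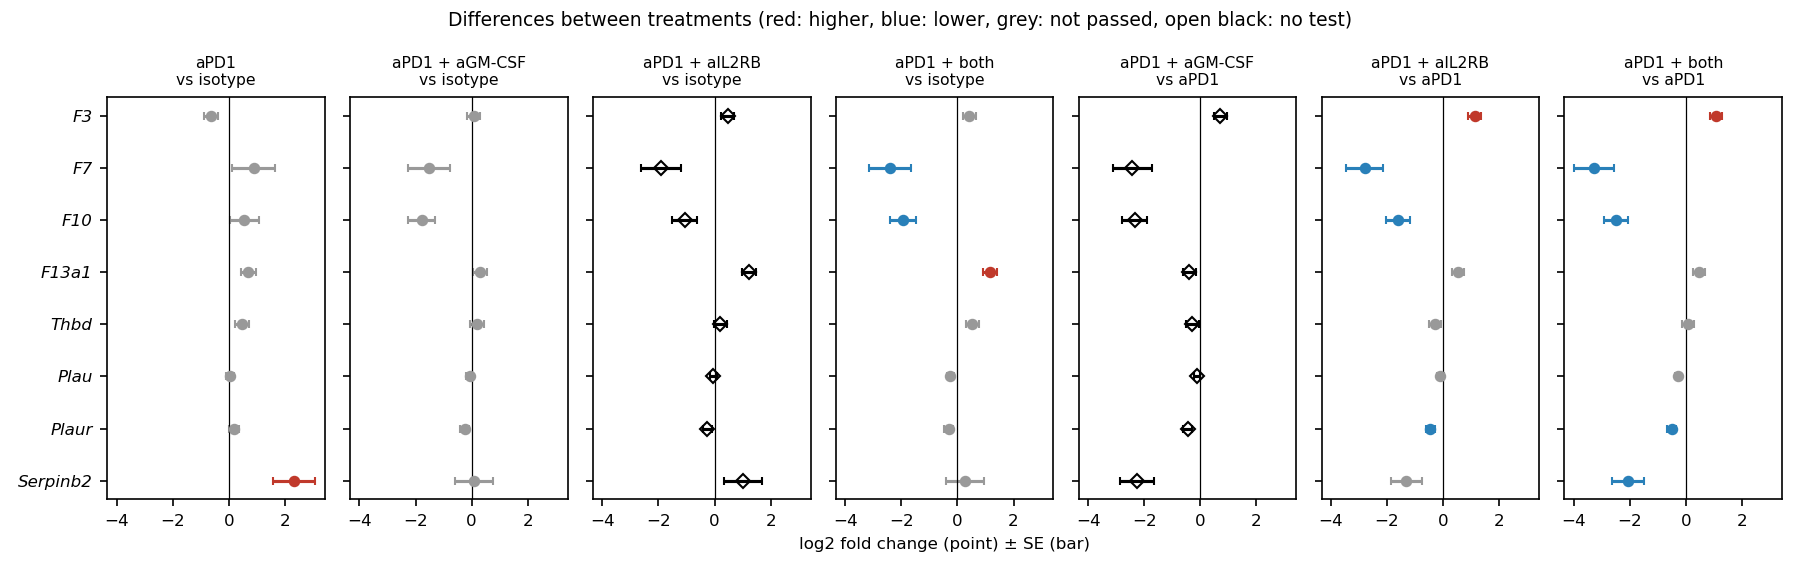
Log2 fold changes of the 8 genes (points) with their SE (bars) in 7 comparisons, 4 against isotype and 3 against aPD1. Red and blue points passed the edgeR test as higher and lower, grey points did not, and open black points carry no test. F10 and F7 are lower in the combined group against both isotype (-1.94 and -2.39) and aPD1 (-2.50 and -3.28), and F3 is higher under aIL2RB and in the combined group against aPD1 (1.12 and 1.07).

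F3, at chr3:121723537-121735048 on the plus strand, encodes the receptor that starts coagulation. It was at 142, 127, 48.3, 58.9 and 41.3 CPM in the isotype tumors, of which the first pair belongs to the first set. Lowest, median and highest values were 33.2, 51.5 and 90.0 CPM with aPD1, 74.0, 80.8 and 121 CPM under aGM-CSF, 52.3, 121 and 142 CPM under aIL2RB, and 68.5, 113 and 149 CPM in the combined group. Isotype tumors thus spanned most of the range of all other groups, and aPD1 tumors were the lowest group.

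Against aPD1, F3 was 2.17-fold higher under aIL2RB (1.12 ± 0.23 on the log2 scale, adjusted p = 0.000185 by edgeR), with 10 of 11 tumors above every aPD1 tumor, and 2.10-fold higher in the combined group (1.07 ± 0.23, adjusted p = 0.000369), with 7 of 11 above. The tumor under aIL2RB that did not lie above was replicate 9, at 52.3 CPM, and without it the value was 1.198. Under aIL2RB the call held in all 11 alternatives and all 42 fits without 1 tumor (adjusted p at most 0.00366), and within sets the values were 1.04 and 1.19. In the combined group they were 0.69 and 1.49, and in the first set alone that call was lost (adjusted p 0.07, against 3.9e-05 to 0.07). Under aGM-CSF against aPD1 F3 was at 0.71 ± 0.23, with no test. Over the 42 tumors F3 had r = -0.698 with the macrophage, -0.68 with the neutrophil, -0.638 with the T cell and -0.594 with the NK cell marker sum. T cell markers summed to 48.8 to 96.4 CPM in aPD1 tumors and to 2.17 to 21.9 CPM under aIL2RB, where 4 of 5 T cell and 4 of 4 NK cell markers were lower than with aPD1. Of 5 fibroblast markers 2 were higher and 2 lower under aIL2RB and 3 higher in the combined group than with aPD1, and of 5 endothelial markers 1 and 2 were higher, while F3 had r = -0.0533 with the fibroblast and 0.0423 with the endothelial sum. The part of these cells in the F3 values was not tested.

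In 1 of 4 comparisons of F3 with isotype a difference between the sets passed. The combined group was 0.42 ± 0.23 above isotype over all tumors (edgeR adjusted p = 0.237), but at -0.43 in the first set and 1.36 in the second, a difference between sets of 1.79 ± 0.35 (adjusted p = 0.0135), and in the second set alone F3 passed (1.36, adjusted p 0.000595). A difference between sets passed for 1.10% of all genes in that comparison. Means of isotype tumors were 135 ± 10.7 CPM in the first set (SD, n = 2) and 49.5 ± 8.83 CPM in the second (SD, n = 3), against 99.3 ± 26.5 (n = 6) and 127 ± 25.6 (n = 5) in the combined group. With aPD1 against isotype the value was -0.64 ± 0.26 (adjusted p = 0.111), and -1.13 and -0.13 in the sets (adjusted p of the difference 0.358), and it passed without aPD1 replicate 2 (-0.85, 0.0255) or isotype replicate 5 (-0.82, 0.0406). Under aIL2RB against isotype it was 0.48 ± 0.23, at -0.08 in the first set and 1.06 in the second, with no test. Under aGM-CSF against isotype F3 was at 0.07 ± 0.24 (edgeR adjusted p = 0.985). Its values there were -0.50 in the first set and 0.65 in the second (adjusted p of the difference 0.932). The labels do not say what the sets are. The epithelial marker sum, which differed between the sets in every group, had r = -0.602 with F3 over 42 tumors, and its part was not tested.

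**Figure D3:**
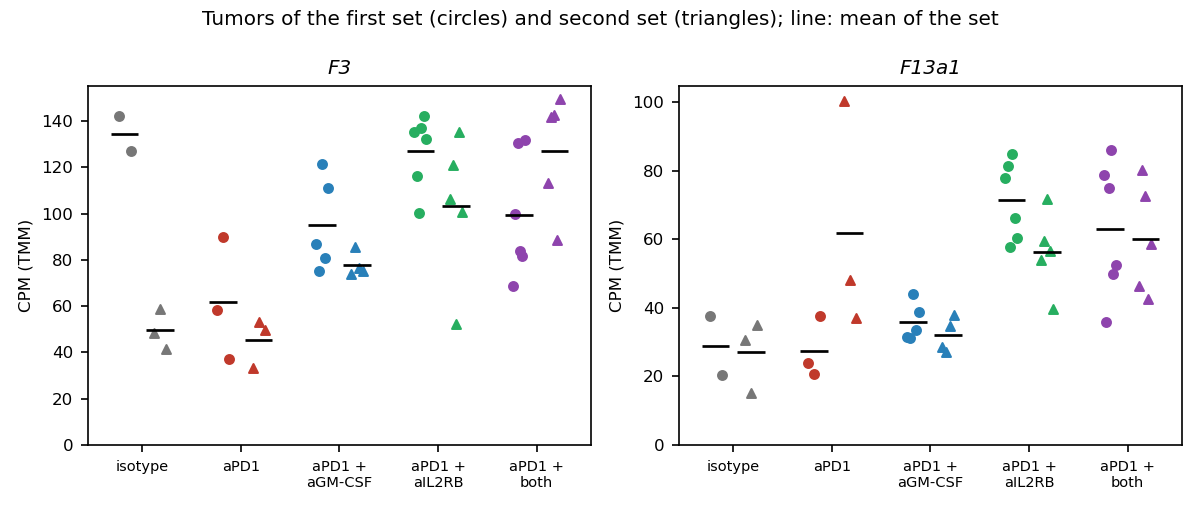
F3 and F13a1 in CPM by treatment group, split into the first set (circles) and the second set (triangles), with a line at the mean of each. The isotype tumors of F3 average 135 CPM in the first set and 49.5 CPM in the second, and the aPD1 tumors of F13a1 average 27.5 and 61.8 CPM.

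F13a1, at chr13:36867178-37050244 on the minus strand, encodes the catalytic subunit of factor XIII, which crosslinks fibrin and is made by macrophages and megakaryocytes. The annotated genes Gm49144 and Gm30489 overlap it on the opposite strand, and whether reads were counted by strand is not given in the sources used here. F13a1 was at 37.6, 20.4, 30.7, 15.3 and 34.98 CPM in the isotype tumors. Lowest, median and highest values were 20.8, 37.2 and 100.4 CPM with aPD1, 27.2, 33.6 and 44.0 CPM under aGM-CSF, 39.7, 60.3 and 84.99 CPM under aIL2RB, and 36.01, 58.5 and 86.0 CPM in the combined group. All 11 tumors under aIL2RB and 10 of 11 in the combined group lay above every isotype tumor, whereas under aGM-CSF 3 of 9 did. Replicate 9 under aIL2RB was at 71.7 CPM, inside the range of its group.

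F13a1 was 2.22-fold higher in the combined group than in isotype tumors (log2 fold change 1.15 ± 0.25, edgeR adjusted p = 0.00362). This call held in 11 alternatives and 42 fits without 1 tumor (adjusted p at most 0.0416). The isotype tumors are among those by which F13a1 was chosen, so neither the p-value nor these refits are independent of that choice. Under aIL2RB against isotype, one of the earlier known results, F13a1 was at 1.22 ± 0.25 and is given with no test. There 0.295% of all genes lay above isotype in every tumor. Against aPD1 + aGM-CSF it was 1.89-fold higher under aIL2RB (0.92 ± 0.20, adjusted p = 0.00757), with 10 of 11 tumors above every tumor under aGM-CSF, and 1.80-fold higher in the combined group (0.85 ± 0.20, adjusted p = 0.0156), with 9 of 11 above. The first of these reuses the 11 aPD1 + aIL2RB tumors by which F13a1 was chosen, and its p-value is not independent of that. Over all tumors it was the only one of the 8 genes to pass in either comparison, where 1.52% and 2.13% of all genes passed, while F3, at 0.36 in the combined group, passed there in the second set alone (0.71, adjusted p 0.0337). The F13a1 calls were lost in the second set alone (adjusted p 0.331, against 6.13e-05 to 0.331) and in the first set alone (0.0891, against 0.00246 to 0.0891), at log2 fold changes of 0.81 and 0.80. Between the combined group and aPD1 + aIL2RB none of the 8 genes passed (2 at an unadjusted p under 0.05 and 0 by DESeq2), where 0.00591% of all genes did, and F13a1 was at -0.07 ± 0.18.

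Against aPD1, F13a1 did not pass under aIL2RB (0.53 ± 0.22, edgeR adjusted p = 0.0742) or in the combined group (0.46 ± 0.22, adjusted p = 0.126), and it was at -0.39 ± 0.23 under aGM-CSF (0.38 in the first set and -0.95 in the second), with no test. Under aIL2RB it was at 1.37 in the first set, where it passed alone (adjusted p 0.00103), and at -0.14 in the second, a difference of -1.51 ± 0.39 (adjusted p = 0.0662), and it passed with scaling by library size only (0.60, adjusted p 0.0371). The combined group was at 1.18 in the first set, where it also passed alone (adjusted p 0.00807), and at -0.05 in the second, a difference of -1.23 ± 0.39 (adjusted p = 0.0398), where 9.18% of all genes had such a difference. The second set holds aPD1 replicate 4, at 100.4 CPM. This tumor also had the highest of the 42 summed levels of macrophage (1646 CPM), neutrophil (43.9), fibroblast (2690), platelet and megakaryocyte (27.2) and epithelial markers (28.7), whose part was not tested. Without that tumor F13a1 passed under aIL2RB (0.95, adjusted p 0.000568) and in the combined group (0.88, 0.00141), as it did under aIL2RB without replicate 11 of that group (0.58, 0.0472), and it was at 0.03 under aGM-CSF. In aPD1 against isotype it was at 0.69 ± 0.27 (adjusted p = 0.098), with -0.07 in the first set and 1.203 in the second by the test of the difference between sets (adjusted p = 0.312), and it passed in the second set alone (1.21, adjusted p 0.0153) and without aPD1 replicate 2 (0.84, 0.0303). The genes most like F13a1 over 42 tumors were Cbr2 (r = 0.825), Fstl1 (r = 0.775) and Cd163 (r = 0.755), the last a scavenger receptor of macrophages. The summed macrophage markers had r = -0.133 with it and the fibroblast sum r = 0.679, and the part of either was not tested.

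Thbd, at chr2:148404466-148408188 on the minus strand, encodes the thrombin receptor of endothelium that promotes protein C activation. It was at 3.12, 3.70, 3.02, 3.503 and 5.14 CPM in isotype tumors, and its lowest and highest values were 2.28 and 7.75 CPM with aPD1, 3.06 and 6.53 CPM under aGM-CSF, 2.72 and 6.21 CPM (replicate 9) under aIL2RB, and 3.81 and 8.80 CPM in the combined group. All groups overlapped. It passed in none of the 8 comparisons tested, the lowest adjusted p being 0.13 (edgeR) for the combined group against isotype, at 0.53 ± 0.23. The endothelial marker sum had group medians of 135 to 188 CPM. The genes most like Thbd were Prg4 (r = 0.684), Lox (r = 0.676) and Il1r1 (r = 0.645).

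Among the genes of plasminogen activation, Plau (chr14:20836660-20843385, plus strand) was at 69.3, 106, 76.3, 72.2 and 71.6 CPM in isotype tumors, with medians of 82.4 CPM with aPD1, 81.6 CPM under aGM-CSF, 73.0 CPM under aIL2RB and 65.8 CPM in the combined group. It too passed nowhere. Its lowest adjusted p was 0.0534 (edgeR) for the combined group against aPD1, at -0.29 ± 0.11, with 7 of 11 tumors below every aPD1 tumor. This was close to the threshold: Plau passed by DESeq2 (adjusted p 0.0415), with DESeq2 size factors in edgeR (adjusted p 0.0448), in the second set alone (-0.51, 0.0142) and in 12 of the 42 fits without 1 tumor. Under aIL2RB the highest tumor was replicate 9 at 107.8 CPM, where the other 10 ran from 65.9 to 81.5. The genes most like Plau were Ptges (r = 0.731), Ch25h (r = 0.705) and Upp1 (r = 0.677).

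Plaur, at chr7:24462484-24475968 on the plus strand, encodes the receptor that anchors urokinase. It was at 26.9, 41.7, 42.6, 52.0 and 45.0 CPM in isotype tumors. Lowest, median and highest values were 32.99, 50.001 and 61.5 CPM with aPD1, 28.8, 33.7 and 45.4 CPM under aGM-CSF, 25.9, 33.3 and 64.3 CPM under aIL2RB, and 23.9, 32.4 and 46.5 CPM in the combined group. The groups overlapped in part, since aPD1 tumors 2 and 6 were at 32.99 and 36.1 CPM and replicate 9 under aIL2RB exceeded every aPD1 tumor.

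Against aPD1, Plaur was 1.43-fold lower in the combined group (log2 fold change -0.51 ± 0.15, edgeR adjusted p = 0.00838), with 7 of 11 tumors below every aPD1 tumor, and 1.37-fold lower under aIL2RB (-0.46 ± 0.15, adjusted p = 0.0187), with 5 of 11 below. The first call was lost in the first set alone (-0.34, adjusted p 0.202, against 0.0042 to 0.202). The second was lost in the second set alone (-0.35, adjusted p 0.238, against 0.0119 to 0.238) and without aPD1 replicate 3 (-0.40, 0.0554) or 4 (-0.37, 0.0867), and without replicate 9 it was -0.58 (adjusted p = 0.000465). Under aGM-CSF against aPD1 the value was -0.45 ± 0.16, with no test. Against isotype no difference passed, with values of 0.20 ± 0.18 for aPD1 (adjusted p = 0.536) and -0.31 ± 0.16 for the combined group (adjusted p = 0.201), which was at 0.09 in the first set and passed in the second set alone (-0.64, adjusted p 0.0418).

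Serpinb2, at chr1:107511423-107535478 on the plus strand, encodes a serpin that inhibits urokinase and that activated monocytes and macrophages produce. Serpinb10 overlaps it on the same strand and was at no more than 0.451 CPM in any tumor. Serpinb2 was at 0.236, 1.05, 0.202, 1.22 and 0.934 CPM in isotype tumors and at 0.745, 0.240, 6.03, 3.96, 10.5 and 0.984 CPM in aPD1 tumors. Lowest, median and highest values were 0.107, 0.601 and 1.44 CPM under aGM-CSF, 0.479, 0.815 and 6.26 CPM under aIL2RB, and 0.205, 0.577 and 2.90 CPM in the combined group. Only 3 of 6 aPD1 tumors, replicates 3, 4 and 5, lay above every isotype tumor, and the 6.26 CPM under aIL2RB was replicate 9, the next being at 1.91.

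Serpinb2 was the only one of the 8 genes to pass in aPD1 against isotype, where 8.71% of all genes did, at 5.02-fold higher (log2 fold change 2.33 ± 0.74, edgeR adjusted p = 0.0402). This call was lost in 5 of 11 alternatives (adjusted p from 0.0126 to 0.461) and without isotype replicate 1 (0.0994), 2 (0.0591), 3 (0.0988), 4 (0.0601) or 5 (0.0561) or aPD1 replicate 3 (0.064), 4 (0.0769) or 5 (0.152). The log2 fold change was 1.70 without aPD1 replicate 5, 1.86 in the first set alone and 2.09 to 2.59 in the other fits without 1 tumor in which the call was lost. In the combined group it was 4.18-fold lower than with aPD1 (-2.06 ± 0.57, adjusted p = 0.00555), with 1 of 11 tumors below every aPD1 tumor. That call was lost without aPD1 replicate 5 (-1.44, adjusted p 0.069) and in the first set alone (-0.86, adjusted p 0.511, against 0.00103 to 0.511). Under aIL2RB it was at -1.32 ± 0.56 (adjusted p = 0.073) over all tumors and at -1.88 (adjusted p = 0.00546) without replicate 9, and it also passed without aPD1 replicate 1 (-1.53, 0.0421), 2 (-1.57, 0.0266) or 6 (-1.52, 0.0478). Under aGM-CSF against aPD1 it was at -2.25 ± 0.61, with no test, and at -1.63 without aPD1 replicate 5.

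Skeletal muscle markers summed to 68.3, 3.60, 579, 0.602, 144 and 245 CPM and keratinocyte markers to 2.86, 33.2, 17.2, 4.09, 3.99 and 2.86 CPM in aPD1 replicates 1 to 6, against 0.234 to 20.3 and 2.95 to 5.09 CPM in isotype tumors. Of the muscle markers 4 of 4, and of the keratinocyte markers 1 of 4, were higher in aPD1 than in isotype tumors, and the share of such tissue in the Serpinb2 levels was not tested. Over 42 tumors Serpinb2 had r = 0.273 with the muscle and -0.037 with the keratinocyte sum. It had r = 0.475 with the macrophage, 0.532 with the neutrophil and 0.558 with the platelet and megakaryocyte sum, and their part was not tested either. The genes most like Serpinb2 were Hmox1 (heme oxygenase; r = 0.853), Ftl1 (ferritin light chain; r = 0.753) and Cxcl2 (a neutrophil chemokine; r = 0.729).

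The promoter windows of F3, Plaur and Serpinb2 are shown because Plaur varied with both others across tumors and each window holds the AP-1 string TGANTCA. They cover 250 bases on the plus strand before the RefSeq start in GRCm38.p6, chr3:121723287-121723536, chr7:24462233-24462482 and chr1:107511173-107511422. Capitals mark the AP-1 string, at positions -146 and -135 in F3, -69 in Plaur and -94 in Serpinb2. They also mark GAGGAA or its reverse complement at -216 and -131 in Plaur and TATAAA at -29 in Serpinb2.
F3: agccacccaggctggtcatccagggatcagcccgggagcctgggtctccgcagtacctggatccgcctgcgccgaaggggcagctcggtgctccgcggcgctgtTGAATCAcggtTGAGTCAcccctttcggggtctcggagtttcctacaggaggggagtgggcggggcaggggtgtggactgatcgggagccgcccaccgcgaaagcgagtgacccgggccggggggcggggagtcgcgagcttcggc
Plaur: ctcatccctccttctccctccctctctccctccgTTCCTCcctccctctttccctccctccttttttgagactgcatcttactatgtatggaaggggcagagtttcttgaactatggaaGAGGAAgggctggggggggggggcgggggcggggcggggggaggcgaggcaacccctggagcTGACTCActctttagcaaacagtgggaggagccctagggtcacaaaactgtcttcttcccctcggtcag
Serpinb2: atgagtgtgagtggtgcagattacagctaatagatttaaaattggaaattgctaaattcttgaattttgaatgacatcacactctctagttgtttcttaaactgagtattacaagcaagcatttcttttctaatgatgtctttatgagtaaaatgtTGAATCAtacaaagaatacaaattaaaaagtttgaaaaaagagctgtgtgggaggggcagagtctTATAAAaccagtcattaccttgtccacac

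Of 32851 windows, 6.75% held TGANTCA and 12.4% held TATAAA, and a match is a description of the letters, not of a bound site. F13a1 held GAGGAA at -66, and Thbd and Plau had no window in the table. F3 ran against Plaur, with a Pearson r of -0.802 over 42 tumors and -0.741 within groups, while Serpinb2 and Plaur varied together at 0.663 and 0.683. F10 and Plaur had r of 0.713 and 0.62, and F10 and F3 -0.622 and -0.435. Replicate 9 under aIL2RB had the highest Plaur of the 42 tumors (64.3 CPM) beside F3 of 52.3 CPM and Serpinb2 of 6.26 CPM. Its Cxcl9, an interferon-induced chemokine, was at 332 CPM against 42.2 to 195 in the other 10 tumors, while Il2rb at 5.03 CPM was 3 from the top of 11. The genes most like F3 were Gas1 (r = 0.937), Foxp2 (r = 0.928) and Rgma (r = 0.917), and those most like Plaur were Ehd1 (r = 0.886), Psmd8 (r = 0.867) and Cd36 (r = 0.863).

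**Figure D4:**
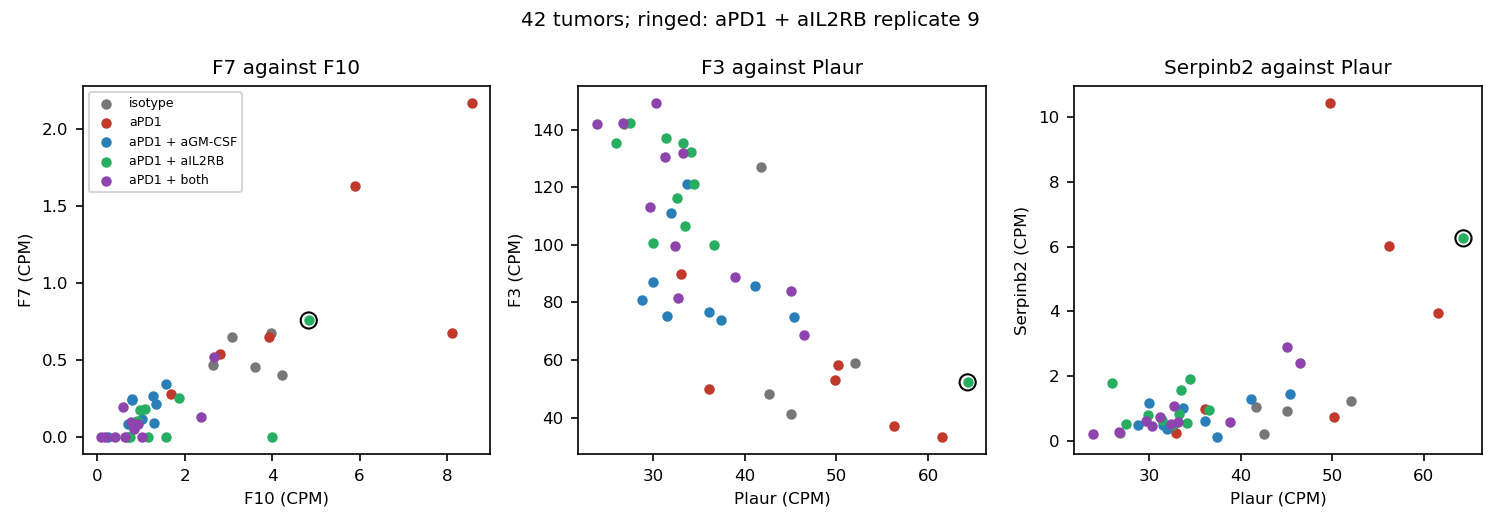
Levels in CPM of F7 against F10, F3 against Plaur and Serpinb2 against Plaur, 1 point per tumor (42 tumors), colored by treatment group, with aPD1 + aIL2RB replicate 9 ringed. F3 is lower where Plaur is higher (r = -0.802 on log2 CPM), and the ringed tumor has the highest Plaur at 64.3 CPM.

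A list of 46 other genes of coagulation, its inhibitors and fibrinolysis was examined in the same fit, of which 43 were in the table and 35 could be tested. In aPD1 against isotype 5 of 35 were higher and 2 lower, where 8.71% of all genes passed. Thbs1 (thrombospondin 1, a matrix protein released by platelets; log2 fold change 1.45), Gas6 (a vitamin K-dependent ligand of TAM receptors; 1.04), Entpd1 (CD39, which degrades ATP and ADP; 0.97) and Serpine2 (protease nexin 1; 0.88) were among those higher. Serpinc1 (antithrombin; -2.13, at a mean of 0.208 CPM against 0.883) and Tfpi (tissue factor pathway inhibitor; -0.20) were lower.

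Against aPD1, 5 of 35 were higher and 7 lower under aIL2RB, and 5 were higher and 6 lower in the combined group, where 27.4% of all genes passed in each. Higher in both were Mmp9 (gelatinase B; 0.97 and 0.91), F8 (factor VIII; 0.91 and 0.99), Ggcx (the vitamin K-dependent carboxylase that factors VII and X require; 0.53 and 0.52), Plat (tissue plasminogen activator; 0.37 and 0.38) and Tfpi (0.34 and 0.33). Lower in both were Tgm2 (tissue transglutaminase; -1.21 and -1.11), Entpd1 (-1.08 and -0.99) and Thbs1 (-1.06 and -0.80), along with S100a10 (a plasminogen receptor subunit; -0.34 and -0.36). F2rl2 (-1.73) and F5 (-1.22) passed as lower under aIL2RB, and Fgg (-3.82, with at most 1.99 CPM in any tumor) in the combined group. Fgg was above 0 in only 2 of 22 tumors of the first set and in 12 of 20 of the second, so its call rests mainly on the second set. The comparisons with aPD1 share the aPD1 tumors. Under aGM-CSF 4 were higher, led by Mmp9 (0.83), and 6 lower, led by Thbs1 (-1.15), where 13.5% of all genes passed. Against isotype, 0 passed under aGM-CSF (2 at an unadjusted p under 0.05), 1 higher and 1 lower under aIL2RB (3.20% of all genes), and 4 higher and 4 lower in the combined group (10.2% of all genes), with F8 at 1.01, Gas6 at 0.92, Serpinc1 at -1.83 and S100a10 at -0.37. Between groups given blocking antibodies 0 of 35 passed in each of 3 comparisons (1 to 9 at an unadjusted p under 0.05).

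**Figure D5:**
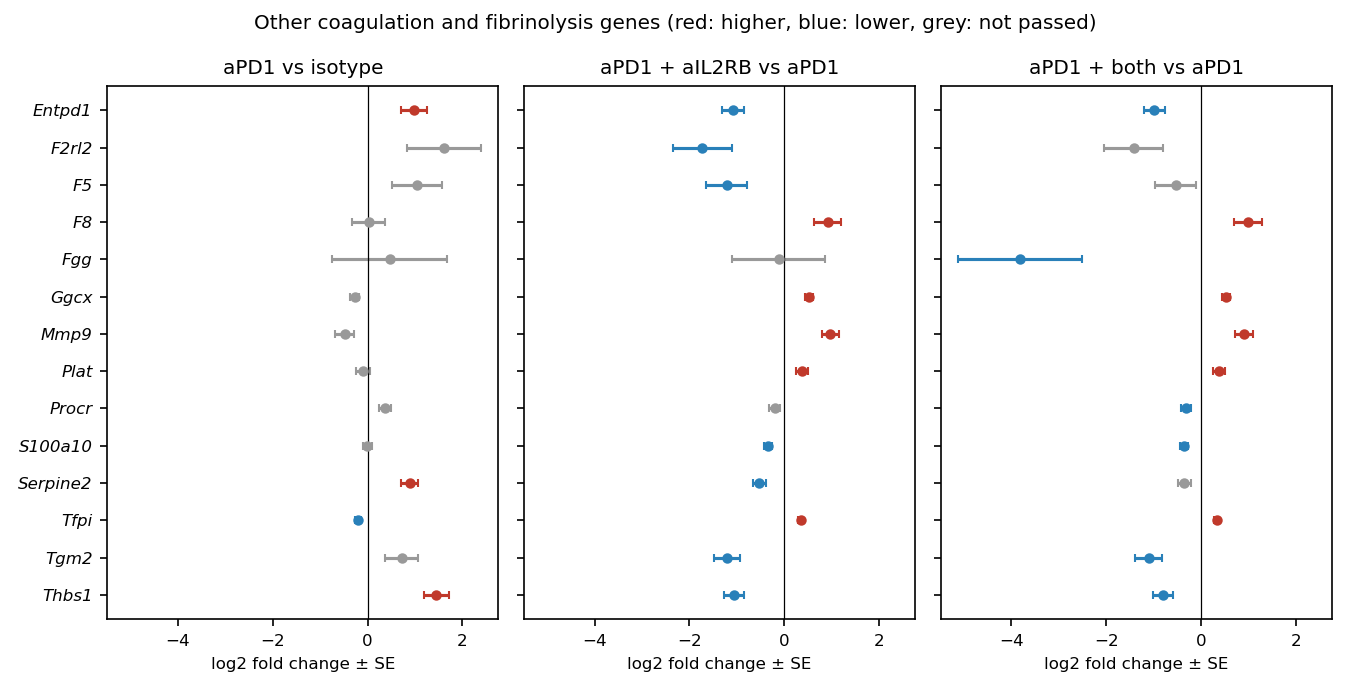
Log2 fold changes (points) ± SE (bars) of the other coagulation and fibrinolysis genes that passed against aPD1 under aIL2RB or in the combined group, shown in these comparisons and in aPD1 against isotype. Red points passed as higher, blue as lower and grey did not pass. Thbs1 and Entpd1 are higher in aPD1 than in isotype tumors (1.45 and 0.97) and lower under aIL2RB than with aPD1 (-1.06 and -1.08).

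The 8 genes were chosen by their fold changes in these same tumors, so their medians are descriptions, not a test against all genes. Over the 8 genes the median log2 fold change was 0.52 in aPD1 against isotype, beside 0.00 over all genes tested. It was -0.37 and -0.40 against aPD1 under aIL2RB and in the combined group, beside 0.00 and 0.01 over all genes, and 0.01 in the combined group against isotype, where F10 and F7 were lower and F13a1 was higher. In the 35 tested genes of the wider list these medians were 0.14, -0.06, -0.12 and 0.13.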

How the data were processed

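RNA was profiled by poly(A) RNA-seq in 42 tumors, 1 per mouse. The authors aligned reads with bowtie 1.2.3 to transcriptomes of the 8 CC founder strains (GRCm38) and deposited expected counts per gene, estimated with gbrs and summed over haplotypes, without normalization. Of the values, 15.2% are not whole (tolerance 1e-06), but the counts of the 8 genes are. An estimated count can hold reads that also fit an overlapping or similar gene.

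Counts were rounded and fitted with edgeR 4.0.16 in R 4.3.3 (quasi-likelihood test, TMM, filterByExpr with a minimum count of 10 and total of 15, which kept 16932 genes, all 42 tumors in 1 model). P-values were adjusted over all genes within each of 10 pairs of groups by the Benjamini-Hochberg method (threshold 0.05). Errors of fold changes are SE. The procedure was tested on simulated data. CPM precision is limited by depth (7155486 to 24101674 counts). The 8 genes and all lists were chosen with earlier results of these data known. The 8 genes therefore carry no test in aPD1 + aGM-CSF against aPD1 and aPD1 + aIL2RB against isotype, where F10 and F13a1 had been reported. Listed genes that passed were named by absolute fold change, at most 5 per direction and pair, with others counted. For each of the 8 genes, the 3 genes of highest Pearson r were taken, over 12442 genes with a mean log2 CPM of at least 1. Alternatives were other normalizations, filters of 5 counts or none, only the groups compared, DESeq2 1.42.0, replicate number as a block, the set as a term, each set alone, no rRNA genes (5 genes, 1.72% to 17.9% of counts), and each tumor left out. The model of sets by treatment and the listing of replicate 9 were added after seeing the data. Promoters came from RefSeq (GRCm38.p6). Some genes that these rules select are not reported here.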

Additional observations from a re-analysis of the deposited data

Results flagged for a closer look

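F13a1 in aPD1 replicate 4, at 100.43 CPM, was far above the other 5 aPD1 tumors, the next of which was at 48.0 CPM. The same tumor had the highest macrophage, neutrophil, fibroblast, epithelial, and platelet and megakaryocyte marker sums of the 42 tumors, whose part was not tested. Plau in isotype replicate 2, at 105.841 CPM, was far above the other 4 isotype tumors, the next of which was at 76.3 CPM. These were 2 of 24 gene and group cases checked for a tumor outside the rest of its group, in the 3 groups of 5 to 9 tumors only (the groups of 11 were not examined), and chance marks about 1 in 20 such cases.

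A pair of comparisons differed between the first and second set of tumors in a test of the difference itself (edgeR, adjusted over all genes). F3 in the combined group against isotype differed by 1.79 log2 units (second minus first set, adjusted p = 0.0135), and F13a1 in the combined group against aPD1 by -1.23 (adjusted p = 0.0398). F13a1 under aIL2RB against aPD1 differed by -1.51 with adjusted p = 0.0662, which missed the threshold.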

How the results depend on the processing

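Of the 8 genes, the number that passed in aPD1 against isotype was 1, and it was 0 with a filter of 5 counts in total or of any count, with only the groups compared in the fit, with the replicate block and in the first set alone, 2 in the second set alone, and 0 to 3 without 1 tumor. In aPD1 + aGM-CSF against isotype it was 0, and 1 with only the groups compared. In the combined group against isotype it was 3, but 1 in the first set, 5 in the second and 2 to 3 without 1 tumor. F7 lost its call there with a filter of 5 counts in total or of any count. Against aPD1 the number was 4 under aIL2RB, 1 in the second set alone, at most 5 over the alternatives and 3 to 5 without 1 tumor. In the combined group against aPD1 it was 5, with 2 in the first set alone, at most 6 over the alternatives and 4 to 7 without 1 tumor. Against aPD1 + aGM-CSF it was 1 under aIL2RB, 0 in the second set, and 1 in the combined group, 0 in the first set and 2 in the second. No called value of a gene changed sign. Values without a call did in 74 cases, among them F3 under aIL2RB against isotype (-0.081 in the first set alone), Plau there (0.13 in the second set, 0.08 without isotype replicate 2) and F13a1 under aGM-CSF against aPD1 (0.38 in the first set, 0.03 without aPD1 replicate 4). The cause of these shifts was not tested, though each set alone has fewer tumors. Of 793 values of called genes 36 lost the call, and of 2593 values of genes not called 35 gained one. Library-size scaling alone changed the split of all genes in aPD1 against isotype from 1045 higher and 430 lower to 769 and 1174, in aPD1 + aGM-CSF against aPD1 from 807 and 1482 to 1402 and 1120, and in aPD1 + aIL2RB and the combined group against aPD1 from 2198 and 2449 to 3125 and 1981 and from 2215 and 2419 to 3279 and 1879. Deviations of same-numbered tumors of different groups correlated at -0.168 to 0.193, with at most 4 pairs of a comparison over 0.1 and never all, so the block rests on a shared number only. Under the replicate block F13a1 also passed against aPD1, at 0.70 under aIL2RB and 0.61 in the combined group.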

Other observations

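Fibrinogen genes and a pair of genes of endothelium differed between the sets. They were singled out after their values were seen, in a division of the tumors that no label fixes. Fgb, the fibrinogen beta chain, had 0 counts in all 22 tumors of the first set and was above 0 in 18 of 20 tumors of the second, at up to 1.85 CPM. Fgg, the gamma chain, was above 0 in 2 of 22 and 12 of 20 tumors. With treatment in the model, Fgg was 3.51 ± 0.72 higher on the log2 scale in the second set (edgeR adjusted p = 0.000377), while Vwf (von Willebrand factor) and F8 were lower by log2 differences of -0.66 ± 0.13 (adjusted p = 0.000299) and -0.61 ± 0.14 (adjusted p = 0.00137).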
